A study of Mus musculus with 6 samples.

Results

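The A-kinase anchoring proteins (AKAPs) on the array were Akap1, Akap2, Akap5, Akap6, Akap7, Akap8, Akap9, Akap10, Akap12 and Akap13. The members were all non-control probes that carry 1 of these 10 gene names in the array files, which gave 19 of the 55681 probes. All 19 passed the filter on dim probes, as did 28032 probes of the whole array. Akap5 passed it by the sham group alone, since not every tail-suspension array held it well above background. The family was put forward because Akap5 had the 3rd largest fall in these hearts, with 2 larger falls among 27689 tested probes that were seen in both groups, and the other 9 genes joined it by family name. The difference between the groups is therefore given for the members as a description, with no p-value.

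AKAPs are scaffold proteins that bind the regulatory subunits of protein kinase A (PKA), the kinase switched on by cyclic AMP (cAMP), and hold it at a fixed place in the cell. Many also bind phosphatases, phosphodiesterases, other kinases and the substrate itself, so that cAMP made at the cell surface is read near the target. In heart muscle such complexes sit at the sarcolemma, the sarcoplasmic reticulum, the nuclear envelope, the mitochondria and the cytoskeleton, and they take part in the adrenergic control of calcium handling and contraction.

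The hearts came from male C57BL/6 mice. In tail-suspension (TS) the hindlimbs are lifted off the floor to imitate weightlessness, and 3 mice were kept so for 28 days. The 3 sham mice stayed in the same room and were fed alike without suspension. By the labels the mice were 10 weeks old when suspension began, yet the age listed for each animal is 11 weeks, which does not match 28 days of suspension. Total RNA of cardiac muscle was labelled in 1 colour, and each of the 6 arrays held 1 mouse.

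Levels are log2 values of the processed intensity relative to the 75th percentile of the same array, which lay between 301.6 and 376.3. They compare arrays for the same probe and not probes with each other. On each array 50.9% to 53.4% of probes were well above background, and no spot was saturated. Cardiomyocyte markers were read from the brightest probe of each gene. They summed to 4930 to 5170 times the 75th percentile in sham and 4670 to 5030 times in TS hearts. These sums include Nppa, which had 97.6 to 200 in sham and 177 to 634 in TS hearts. Nppa and Ryr2 had log2 fold changes of 1.45 and 0.16, and the other genes of the list had negative ones. Actc1 had -0.33 (adjusted p = 0.0364 by limma), and the median of the list was -0.11. Myh1, Myh2, Myh4, Actn3 and Mylpf of skeletal muscle were not well above background on any array. The 6 arrays lay in 2 rows of the slide. The first held the 3 sham arrays and TS replicate 1, and the second held TS replicates 2 and 3. Differences within the first row are therefore given where they matter. A fit with the row as a block measures the group difference in the first row only, so it rests on TS replicate 1.

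The probes of Akap5, Akap12, Akap1, Akap7 and Akap13 are given here as the array files list them, 5′ to 3′. Those of the other members are not shown. The Akap7 probe from base 2031 is left out. A reader can thus see which stretch of each transcript was read. The files place them on mouse build mm9 but do not say which exon or untranslated region they read. Each probe has 60 bases. Of probes nearest the 3′ end of a gene only 30 bases are shown, namely bases 26 to 55 of the Akap7 probe from base 3062, bases 31 to 60 of the Akap13 probe from base 12273 and bases 1 to 30 of the others. Capitals mark AATAAA, the letters of the usual polyadenylation signal.
Akap5 probe from base 6527: ccataagagtaccactttgtatcctcattg
Akap12 probe from base 2545: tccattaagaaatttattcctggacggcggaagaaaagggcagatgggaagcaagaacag
Akap12 probe from base 6050: gtactcttctaggctggaccgaattcatat
Akap1 probe from base 1594: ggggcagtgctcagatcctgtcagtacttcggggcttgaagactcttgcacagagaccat
Akap1 probe from base 3683: ctttagcattgtgcaatttaagaataactt
Akap7 probe from base 278: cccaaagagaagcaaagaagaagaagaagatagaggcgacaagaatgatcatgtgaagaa
Akap7 probe from base 3062: ttcatgccctgtAATAAAagtactctttcc
Akap13 probe from base 5348: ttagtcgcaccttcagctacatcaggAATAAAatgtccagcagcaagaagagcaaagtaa
Akap13 probe from base 6963: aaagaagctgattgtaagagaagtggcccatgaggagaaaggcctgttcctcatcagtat
Akap13 probe from base 12273: ctgtactaagccctattaAATAAAaagtcg
The base is the position in the transcript at which the files start the probe. AATAAA was searched on the listed strand and, as TTTATT, on the other. It was found in 4 of the 19 member probes on the listed strand, against 10.1% of the 55681 probes of the array, and in 1 on the other strand, against 3.74%. A match shows only that these letters are there.

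Across the family, 3 of the 10 genes had a probe called, meaning an adjusted p under 0.05 by limma with the Benjamini-Hochberg method over all 28032 tested probes, and all of these probes were lower in TS hearts. They were the Akap5 probe, both Akap12 probes and 1 of the 2 Akap1 probes, so 4 of 19 probes were called lower, where 9.57% of all tested probes were. None of the 19 was called higher, where 10.8% of all tested probes were. Before adjustment, 2 member probes passed p of 0.05 as higher and 6 as lower in limma, where 19.3% and 18.8% of all tested probes did. By the methods' t-test after adjustment, 1 was called higher and 3 lower, where 5.47% and 4.45% of all tested probes were. The contrast put the family forward, so nothing is read from these counts.

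The TS arrays lay entirely below the sham arrays for 7 member probes and entirely above them for 3, where 21.9% and 22.1% of all tested probes with values on all arrays did so. For the remaining 9 the groups overlapped. The median log2 fold change of the members was -0.1, and -0.00485 over all tested probes. The median size of the change, regardless of sign, was 0.16 for the members and 0.236 for all tested probes. Akap5 was the only member probe lower by 2-fold or more, where 1.95% of all tested probes were, and none was higher by that much. Without Akap5 the largest size was 0.89 on the log2 scale. In bulk heart RNA, fewer cells of a type and less RNA per cell cannot be told apart.

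**Figure D1:**
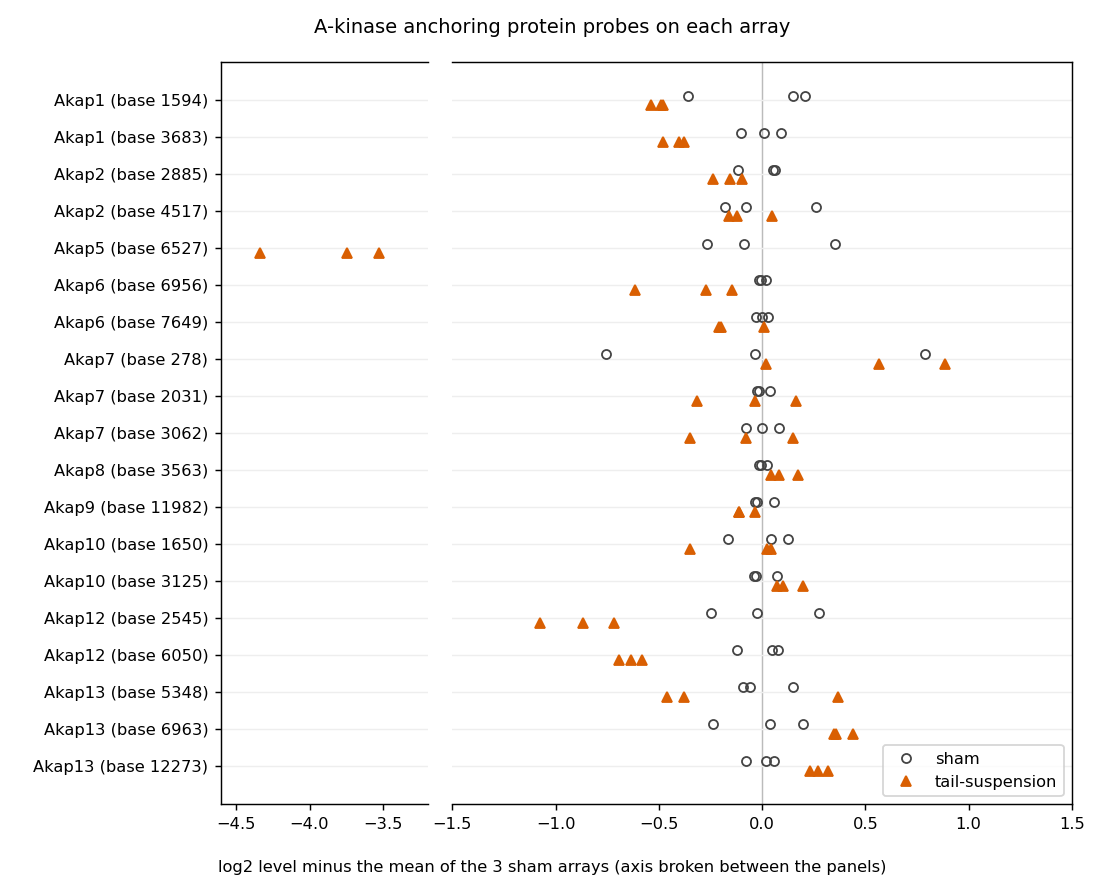
Log2 level of each of the 19 member probes on each array, minus the mean of the 3 sham arrays for that probe (open circles, sham; triangles, TS; the horizontal axis is broken). Akap5 on the TS arrays lies at -3.52 to -4.33 from its sham mean, and the lowest of the other values is -1.08, for Akap12.

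The anchors of the plasma membrane are Akap5, Akap7 and Akap12. Akap5 (AKAP150 in the mouse) binds PKA together with calcineurin and protein kinase C, and holds them at beta-adrenergic receptors and L-type calcium channels. It was read by 1 spot, which the files place on the plus strand at chr12:77434981-77435040. The spot had a processed intensity of 271, 237 and 343 in sham hearts and of 22.7, 29.2 and 16.6 in TS hearts.

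The lowest sham array was thus far above the highest TS array, and the groups did not overlap. The scanner software's own error of the spot was 10.1% on each sham array and 18.2%, 19.2% and 26.8% on the TS arrays. The spot was well above background on all 3 sham arrays and on TS replicates 1 and 2, but not on TS replicate 3. The mean log2 level was -0.17 in sham hearts (SD 0.32, n = 3) and -4.03 in TS hearts (SD 0.42, n = 3).

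Akap5 had a log2 fold change of -3.87 (SE 0.25), a level 14.6-fold lower in TS hearts. When a level under the lowest signal well above background of its array was held at that signal, which raised 1 TS array, the level was 13.8-fold lower. Within the first row of the slide it was -3.75 on the log2 scale. The size depended on how background was treated, with -2.03 after normexp correction and -3.41 in the authors' log2 values.

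**Figure D2:**
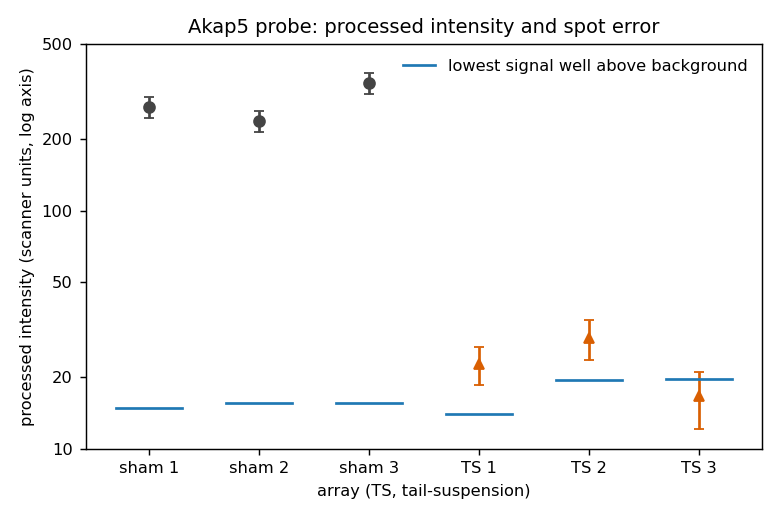
Processed intensity of the Akap5 spot on each array, on a log axis, with the scanner software's error of the spot as bars and the lowest signal well above background of each array as a blue line. The sham arrays lie between 237 and 343, the TS arrays between 16.6 and 29.2, and TS replicate 3 lies under its line at 19.7.

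Akap12 (SSeCKS or gravin), a scaffold for PKA, protein kinase C and beta-adrenergic receptors, was lower by both of its probes. The probe from base 6050, on chr10:5987207-5987266, minus strand, had log2 levels of 3.19, 3.36 and 3.39 in sham and 2.68, 2.73 and 2.62 in TS hearts. The TS arrays lay close together, all below the lowest sham array. Its log2 fold change was -0.64 (SE 0.09), a 1.56-fold lower level.

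The probe from base 2545, on chr10:5991250-5991309, minus strand, was dim, with processed intensities of 61.1, 42.3 and 46.3 in sham and 32.5, 32.3 and 27.9 in TS hearts. These were well above background on all 6 arrays, and again the groups did not overlap. Its log2 fold change was -0.89 (SE 0.16), and -0.52 after normexp correction. The changes of the probes differed by 0.25 on the log2 scale, and the array-by-array differences between them overlapped between the groups. Within the first row of the slide the log2 fold changes were -0.63 and -0.72. With the row as a block, neither Akap12 probe was past the adjusted threshold.

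Most endothelial markers were also lower in TS hearts. Of the 9 listed and tested, 5 were called lower (Kdr, Tie1, Egfl7, Emcn and Cldn5) and 0 higher in limma, with a median log2 fold change of -0.31. Over all genes, 20.3% were called in either direction. Pecam1 and Eng had 0.19 and 0.17, and were not called. The summed level of the list was 172 to 183 times the 75th percentile in sham and 132 to 152 times in TS hearts, without overlap. Egfl7 made up most of this sum, with 111 to 119 in sham and 87.1 to 96.9 in TS hearts. Of the 8 fibroblast markers, Col3a1 was called lower and 0 were called higher in limma, with a median log2 fold change of -0.41. The collagen genes Col3a1, Col1a1 and Col1a2 had -1.88, -0.95 and -0.63, and Lum had -0.64. Pdgfra, Tcf21 and Dpt had 0.19, -0.03 and -0.19. Dcn, which made up most of the summed level, had 0.34. The sums, 280 to 297 in sham and 278 to 350 in TS hearts, therefore mainly follow Dcn.

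The median log2 fold change of red cell markers was -1.5, and 0 of the 5 tested were called in limma. Their sums of 428 to 689 in sham and 106 to 344 in TS hearts did not overlap. Hba-a1 and Hbb-b1 made up most of these sums, with log2 fold changes of -1.5 and -1.54. Alas2 had -1.62, whereas Slc4a1 and Ahsp had -0.19 and 0.69. Dbh, the noradrenaline-making enzyme of sympathetic nerves, was the only 1 of the 7 tested neuron and Schwann markers to be called, with a log2 fold change of -2.09 (adjusted p = 0.0042 by limma). Of the 7 tested neutrophil markers, S100a8 and S100a9 were called higher, where 20.3% of all genes were called in either direction. Retnlg and Ltf were called higher too. They entered the test by the TS group alone, so their calls are not set against that share. Camp, Csf3r and Elane had 1.97, 0.30 and -0.30, and were not called. S100a8 and S100a9 had log2 fold changes of 4.80 and 4.62, and Retnlg and Ltf have only a bound, since no sham array held them well above background. The part of these cells in the Akap5, Akap12 and Akap1 values was not tested.

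Akap7 (AKAP15 or AKAP18), whose forms tether PKA to L-type calcium channels and to phospholamban, was read by 3 probes. The probe from base 278, on chr10:25003766-25003825, minus strand, varied more between the sham mice than any other member probe. Its log2 levels were 4.54, 3.82 and 5.36 in sham and 4.59, 5.14 and 5.46 in TS hearts. Sham replicate 3 was above TS replicates 1 and 2. The log2 fold change was 0.49 (SE 0.41), with SDs of 0.77 in sham and 0.44 in TS hearts (n = 3 each), and 0.02 within the first row.

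The Akap7 probes from bases 2031 and 3062 did not share that spread. On chr10:24889928-24889987 the levels were 0.90, 0.84 and 0.85 in sham and 0.83, 1.03 and 0.55 in TS hearts. On chr10:24888897-24888956 they were 2.70, 2.54 and 2.62 in sham and 2.54, 2.77 and 2.27 in TS hearts. For both, TS replicate 2 was the highest of the 6 arrays and TS replicate 3 the lowest, and the groups overlapped. The log2 fold changes were -0.06 (SE 0.13) and -0.10 (SE 0.14).

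**Figure D3:**
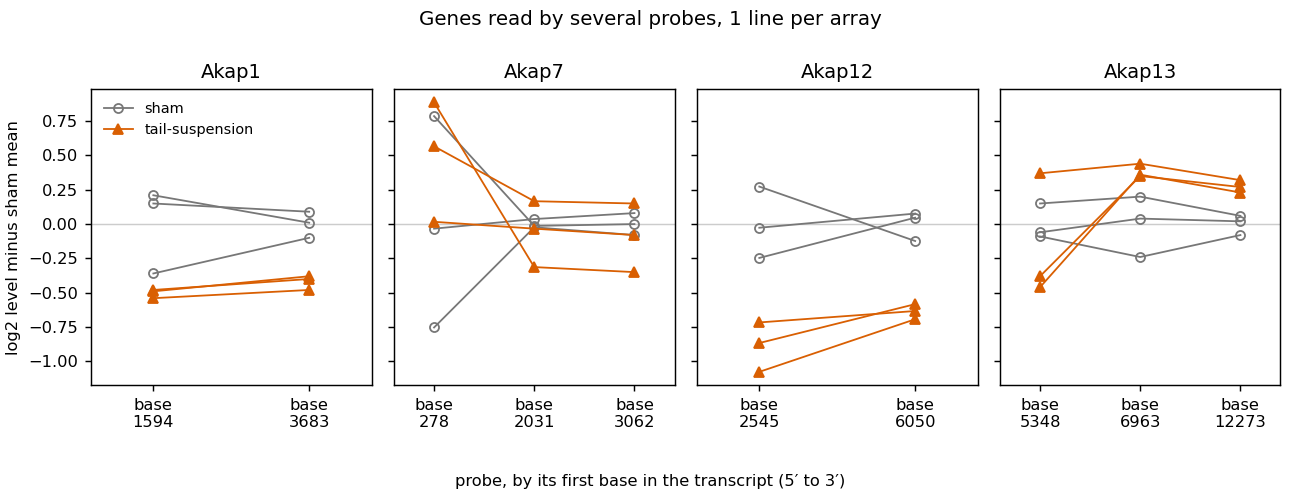
Log2 level minus the sham mean for the probes of Akap1, Akap7, Akap12 and Akap13, with 1 line per array and the probes in 5′ to 3′ order by their start base. The TS lines of Akap1 and Akap12 lie below all sham lines at each probe, those of Akap7 spread at base 278 as the sham lines do, and those of Akap13 lie above the sham lines at bases 6963 and 12273 but not at base 5348.

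The anchors of mitochondria are Akap1 and Akap10. Akap1 (AKAP121, D-AKAP1) sits in the outer mitochondrial membrane, where it holds PKA, phosphatases and messenger RNA. The probe from base 3683, on chr11:88692121-88692180, minus strand, had levels of 3.11, 3.03 and 2.92 in sham and 2.64, 2.54 and 2.62 in TS hearts. All TS arrays lay below all sham arrays. This gave a log2 fold change of -0.42 (SE 0.09), a 1.34-fold lower level, and of -0.38 within the first row. With the row as a block the probe was not called.

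The Akap1 probe from base 1594, on chr11:88705716-88705775, minus strand, had levels of -0.77, -0.71 and -1.28 in sham and -1.41, -1.46 and -1.40 in TS hearts. The groups did not overlap, but sham replicate 3 lay closer to the TS arrays than to the other sham arrays. This probe, with a log2 fold change of -0.51 (SE 0.16), was not called.

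Akap10 (D-AKAP2), which binds both type I and type II regulatory subunits of PKA, showed overlapping groups by both probes. On chr11:61685472-61685531, minus strand, the levels were 0.18, 0.07 and 0.08 in sham and 0.21, 0.31 and 0.18 in TS hearts, where sham replicate 1 was level with TS replicate 3. The log2 fold change was 0.12 (SE 0.09). The probe on chr11:61706963-61707022 was dim, with processed intensities of 33.3 to 38.4 in sham and 34.5 to 44.3 in TS hearts. Its log2 fold change was -0.09 (SE 0.14).

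Akap6 (mAKAP) organises PKA, phosphodiesterase and ryanodine receptors at the nuclear envelope and the sarcoplasmic reticulum. The probe on chr12:54243654-54243713, plus strand, had levels of -1.41, -1.38 and -1.40 in sham and -1.67, -1.54 and -2.01 in TS hearts. The sham arrays lay close together, and all TS arrays were lower, TS replicate 3 the most. With a log2 fold change of -0.34 (SE 0.13), the probe was not called.

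The other Akap6 probe, on chr12:54249389-54249448, had levels of 1.86, 1.92 and 1.89 in sham and 1.90, 1.68 and 1.69 in TS hearts. TS replicate 1 lay among the sham arrays, and the log2 fold change of -0.14 (SE 0.09) was 0.01 within the first row.

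Akap9 (AKAP450) is a large scaffold of the centrosome and the Golgi, and a splice form of it, yotiao, binds the KCNQ1 potassium channel. On chr5:4080082-4080141, plus strand, its levels were 1.86, 1.94 and 1.85 in sham and 1.77, 1.77 and 1.85 in TS hearts. The groups were apart only beyond the digits printed, since sham replicate 3 and TS replicate 3 round to the same level, and the log2 fold change was -0.08 (SE 0.08).

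Akap8 (AKAP95), a nuclear scaffold with a part in chromatin condensation at mitosis, was read on chr17:32440693-32440752, minus strand. Its levels were 0.69, 0.73 and 0.70 in sham and 0.75, 0.88 and 0.79 in TS hearts. All TS arrays were higher, by a small margin. Its log2 fold change of 0.10 (SE 0.08) was not called.

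Akap2, which binds PKA at the actin cytoskeleton, is part of the joined gene Pakap in the gene table of RefSeq for GRCm38.p6, so its probes may also read transcripts of Palm2. On chr4:57905932-57905991, plus strand, the levels were 5.13, 5.30 and 5.31 in sham and 5.15, 5.01 and 5.09 in TS hearts. TS replicate 1 lay above sham replicate 1, so the groups overlapped, and the log2 fold change was -0.16 (SE 0.09). On chr4:57907544-57907603 the log2 fold change was -0.08 (SE 0.14), with overlapping groups.

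Akap13 (AKAP-Lbc) anchors PKA and is also an exchange factor that activates RhoA. Its probes did not run the same way. The probe from base 12273, on chr7:82899226-82899285, plus strand, had levels of 3.26, 3.16 and 3.30 in sham and 3.47, 3.56 and 3.51 in TS hearts. The probe from base 6963, on chr7:82881198-82881257, had levels of 1.06, 0.78 and 1.22 in sham and 1.38, 1.46 and 1.37 in TS hearts.

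For both of these probes all TS arrays lay above all sham arrays. The log2 fold changes were 0.27 (SE 0.08) and 0.39 (SE 0.13), and neither was called in the main comparison. Each passed the adjusted threshold under some other settings, 5 of 18 for the probe from base 12273 and 3 of 18 for that from base 6963.

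The Akap13 probe from base 5348 is placed by the files over chr7:82842265-82849254, a stretch of 6990 bases for 60 bases of probe, so it joins separate exons. Its levels were 2.70, 2.67 and 2.91 in sham and 2.30, 3.13 and 2.38 in TS hearts. TS replicate 2 was the highest of the 6 arrays and TS replicates 1 and 3 the lowest. The log2 fold change was -0.16 (SE 0.22). Its difference from the probe from base 6963 was 0.55 on the log2 scale, and of the TS arrays only replicate 2 lay within the sham range of this difference.

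Among 20439 genes read by their brightest probe, the genes whose centred profile over the 6 arrays was nearest that of Akap5 were Itgb6, Apln, D830015G02Rik, Aplnr and D0H4S114. Their root mean square difference from Akap5 was 0.394, 0.41, 0.428, 0.524 and 0.647 on the log2 scale. All 5 were lower in TS hearts, with log2 fold changes of -3.34, -3.69, -3.32, -4.64 and -2.74. The measure rests on the same difference that put Akap5 forward and describes likeness only.

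Other genes of the pathway were read from lists chosen by function, each gene by its brightest tested probe, with 20.3% of all genes called. PKA itself was represented by 10 genes, of which 1 was called higher and 2 lower. Prkar1b, a type I regulatory subunit, rose by 0.67 on the log2 scale (SE 0.16, adjusted p = 0.0308 by limma). Its levels were -0.77, -0.99 and -1.25 in sham and -0.14, -0.52 and -0.33 in TS hearts, without overlap.

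Pkia and Pkig, which encode inhibitors of the catalytic subunit, fell. Pkia was 3.53, 3.75 and 3.34 in sham and 2.69, 3.02 and 2.47 in TS hearts, a log2 fold change of -0.82 (SE 0.17, adjusted p = 0.0229 by limma). Pkig had a log2 fold change of -0.31 (SE 0.08, adjusted p = 0.0391 by limma), and -0.25 by its other probe, which was not called.

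The catalytic subunit genes Prkaca and Prkacb had log2 fold changes of -0.35 (SE 0.11, adjusted p = 0.0717 by limma) and -0.05 (SE 0.08), and were not called. Prkx, a related catalytic kinase, had 0.08 (SE 0.09). The type II regulatory subunit Prkar2a, the form most AKAPs bind, had a log2 fold change of -0.03 (SE 0.18). Prkar2b had 0.44 (SE 0.21) by its brighter probe, which was not called, and 0.72 by its other probe, which was. Prkar1a had 0.55 by its brighter probe (SE 0.20, adjusted p = 0.0978 by limma) and -0.06 by the second. With the slide row as a block, which rests on TS replicate 1 alone, Prkar1b, Pkia and Pkig had 0.86, -0.85 and -0.27.

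**Figure D4:**
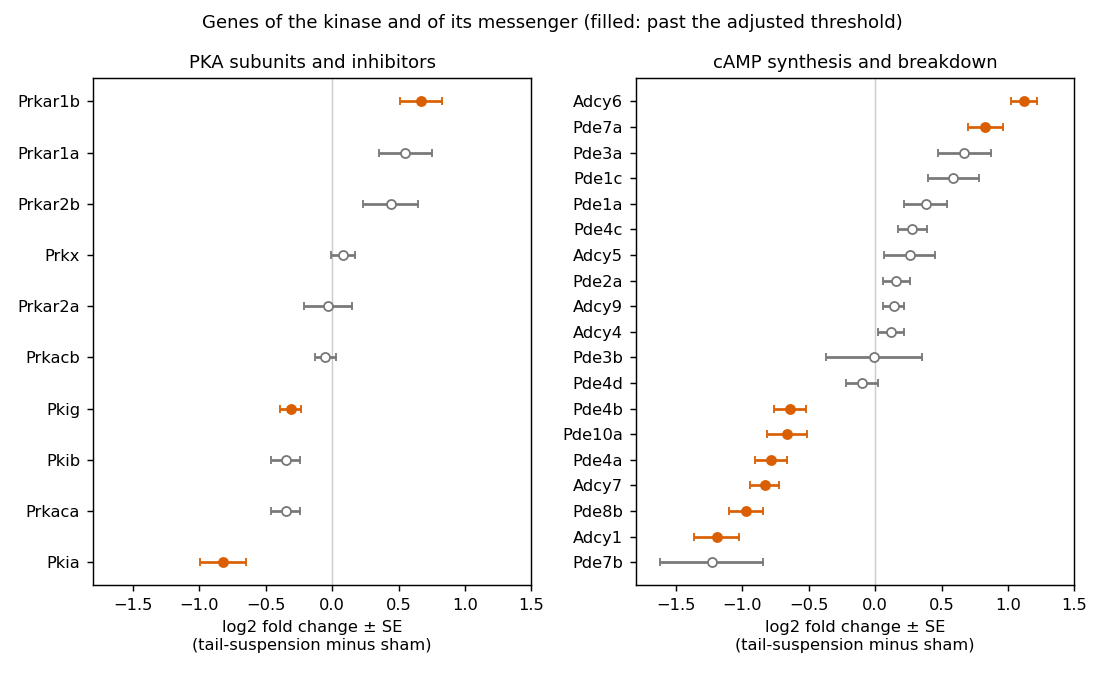
Log2 fold change (TS minus sham) with its standard error for the 10 tested PKA genes and the 19 tested genes of cAMP synthesis and breakdown, each by its brightest tested probe. Filled points passed the adjusted threshold (limma), from Adcy6 at 1.12 to Adcy1 at -1.19.

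Of the genes that make or break down cAMP, 19 of 24 were tested, with 2 called higher and 6 lower and a median log2 fold change of 0.12. Adcy6, a main adenylyl cyclase of heart muscle, was 3.46, 3.57 and 3.53 in sham and 4.65, 4.52 and 4.77 in TS hearts. The groups lay well apart. It rose by 1.12 (SE 0.10, adjusted p = 0.00236 by limma), and by 1.13 with the row as a block, which rests on TS replicate 1 alone. Pde7a, a cAMP phosphodiesterase, rose by 0.83 (adjusted p = 0.00974 by limma), and had 0.64 by its other probe, which was not called.

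The cyclases Adcy1 and Adcy7 fell, with log2 fold changes of -1.19 (SE 0.17, adjusted p = 0.00831 by limma) and -0.83 (SE 0.11, adjusted p = 0.00647). The phosphodiesterases that fell were Pde8b, Pde4a, Pde10a and Pde4b, with log2 fold changes of -0.97, -0.78, -0.66 and -0.64 and adjusted p (limma) of 0.00638, 0.0091, 0.0265 and 0.0174. Adcy5, the other main cyclase of heart muscle, had 0.26 (SE 0.19) with overlapping groups.

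Of proteins that AKAPs bring together with PKA, 46 of 49 genes were tested, with 3 called higher and 5 lower and a median log2 fold change of -0.04. Prkcd, a protein kinase C, rose by 0.66 (adjusted p = 0.00674), the scaffold Dlg1 by 0.45 (adjusted p = 0.0263) and the calcineurin target Nfatc1 by 0.35 (adjusted p = 0.0452, all by limma). The second probes of these genes had 0.61, 0.52 and 0.45 and were also called. Cacnb2 and Cacna2d1, accessory subunits of the L-type calcium channel, fell with log2 fold changes of -0.70 and -0.48 (adjusted p = 0.0212 and 0.0173 by limma). Their second probes had -0.22 and -0.28 and were not called. Vhl and Hif1a had -0.43 and -0.36 (adjusted p = 0.0332 and 0.0488 by limma). The second Hif1a probe had -0.19 and was not called.

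The pore subunit of the channel, Cacna1c, had 0.08 (SE 0.11), and the beta-adrenergic receptor gene Adrb1 had -0.53 (SE 0.17, adjusted p = 0.0718 by limma). The levels of Adrb1 were 1.44, 1.47 and 1.65 in sham and 0.61, 1.19 and 1.16 in TS hearts. With the row as a block, which rests on TS replicate 1 alone, Adrb1 had -0.91. In the main comparison the second Adrb1 probe had -0.62 and was not called.

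Further anchoring proteins outside the numbered members were measured by 14 of 20 listed names, of which 1 was called higher and 1 lower, with a median log2 fold change of -0.09. Akap8l, a nuclear relative of Akap8, was 2.24, 2.29 and 2.17 in sham and 2.90, 3.00 and 3.10 in TS hearts. It rose by 0.77 (SE 0.09, adjusted p = 0.00482 by limma). Synm, an intermediate filament protein that binds PKA, had a log2 fold change of -0.75 (SE 0.16, adjusted p = 0.0243 by limma), and 2 of its other probes were also called. Neither was called with the row as a block.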

How the data were processed

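The authors deposited the scanner output of 6 one-colour arrays, in which Agilent Feature Extraction 10.7.1.1 gave each spot a processed intensity after background correction, and 1 further deposited table that holds log2 values for these arrays. Probe coordinates are those of the files (mm9).

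The processed intensity was turned into log2 values in R 4.3.3, from which the log2 of that array's 75th percentile was subtracted. Controls and outlier-flagged spots were dropped. A probe entered the test if all arrays of either group held it well above background. Groups were compared with limma 3.58.1 by lmFit and eBayes, without covariates, at a Benjamini-Hochberg adjusted threshold of 0.05 over 28032 probes. The steps were tested on simulated data. Genes outside the family were read from their brightest tested probe. Named were all members, genes of 4 lists past the threshold (at most 8 a list), PKA subunits, and the 5 genes most like Akap5, except 1 listed gene that is not reported here. Adcy5, Cacna1c and Adrb1 were named after their values were seen. The members, the lists and the alternatives were chosen with earlier results of these data known.

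Replicates were separate mice, and 3 arrays a group limit the precision. Replicate numbers were not stated to pair the samples. The correlations of deviations between arrays of the same number were -0.02, -0.0176 and 0.0495. With 3 arrays a group these cannot settle whether the samples were paired. Alternatives covered the background, normalization, filters, variance model, test, blocks and each array left out.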

Additional observations from a re-analysis of the deposited data

How the results depend on the processing

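The sign of Akap5, Akap12 and Akap1 was the same under each alternative run. The call of the Akap1 probe from base 3683 was lost in 7 of 18 alternatives, among them those without sham replicate 1 or 2 or TS replicate 1 or 3. The call of the Akap12 probe from base 2545 was lost in 4 of 18, among them that without TS replicate 3, and that of the Akap12 probe from base 6050 in 1. Akap5 has no value with only probes well above background on all arrays. Its log2 fold change of -3.87 moved to -2.03 with normexp and to -3.41 in the authors' log2 values, and lay between -4.04 and -3.63 when single arrays were left out. The count of 4 member probes called lower was 2 without the filter on dim probes, 1 with the slide row as a block, and between 2 and 5 with each array left out, 2 without TS replicate 3. The count of 0 called higher was 2 with normexp, with an intensity trend and with array weights, 1 in the authors' log2 values and by the methods' t-test, and 0 with each array left out.

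Over all probes, 2683 lower and 3023 higher became 790 and 1041 without the filter, 1248 and 1532 by the methods' t-test, 1403 and 1714 with the replicate block, and 177 and 320 with the row as a block. Array weights gave 4097 lower. Leaving out each array gave 749 to 2701 lower and 1008 to 2885 higher, with the lowest without sham replicate 2. The replicate block left 3 member probes called lower, without that of Akap1.

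Of other anchoring genes, 2 called became 1 by the methods' t-test and 0 with the row as a block, and 1 to 2 leaving out each array. Of PKA genes, 3 became 0 without the filter, 7 with array weights, 1 by the methods' t-test, 0 with the row as a block and 0 to 5 with each array left out (0 without sham replicate 2, TS replicate 1 or TS replicate 3). Of cAMP genes, 8 became 1 with the row as a block and 6 to 10 leaving out each array. Of partner genes, 8 became 1 without the filter, 14 with an intensity trend, 5 by the methods' t-test, 3 with the replicate block, 1 with the row as a block and 1 to 7 with each array left out (1 without sham replicate 1 or 2). The cause of these moves was not tested. The slide as a block could not be run, since all arrays lay on 1 slide. With the row as a block the difference rested on TS replicate 1 alone, so a call lost or kept there is not read as an effect of the row. The Akap5 spot was not well above background on TS replicate 3.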
